A study of Mus musculus with 10 samples.

Results

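The 10 genes described here encode the enzymes that make, interconvert and break down serine and glycine in liver and pass their carbon to folate. They were taken by gene symbol from a deposited table of 17359 genes, and each of the 10 symbols matched 1 row. The members were Phgdh (NCBI gene 236539), Psat1 (107272), Psph (100678), Shmt1 (20425), Shmt2 (108037), Sds (231691), Gldc (104174), Amt (434437), Aldh1l1 (107747) and Mthfd1 (108156). Liver RNA came from mice on a high-fat diet (HFD) that ate freely (AL, n = 3), from mice at day 3 of a weekly calorie restriction cycle on the same diet (LC, n = 4), and from mice at day 7 of that cycle, in its refeeding period (RF, n = 3). In each cycle the ration was 50% below normal on the outer days of the restriction (1 and 4), 70% below on the inner days (2 and 3), and unlimited from day 5 to day 7. All groups, the freely fed one included, ate the high-fat diet. The sources used here do not give the strain, sex, age, time of day or hours since the last meal. They also do not state that each library came from a separate animal, so a p-value here rests on a spread that may be technical. The libraries held 13871524 to 15899457 expected counts each.

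Serine is built from the glycolytic intermediate 3-phosphoglycerate by the enzymes of Phgdh, Psat1 and Psph, which act in that order. The hydroxymethyltransferases of Shmt1 in the cytosol and Shmt2 in mitochondria move a carbon from serine to tetrahydrofolate and leave glycine. The mitochondrial glycine cleavage system, which holds the proteins of Gldc and Amt, breaks glycine down to carbon dioxide and ammonia and charges a further folate. Liver also turns serine into pyruvate through the dehydratase of Sds. The enzymes of Mthfd1 and Aldh1l1 interconvert the folate-bound carbon in the cytosol or release it as carbon dioxide.

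At day 3 of the cycle 5 of the 8 tested enzyme genes were lower than in freely fed liver: Gldc, Amt, Mthfd1, Aldh1l1 and Shmt2 (15.6% of all tested genes were called lower). None of the 8 was higher, where 16% of all genes were. At day 7, 5 of the 8 (Gldc, Amt, Mthfd1, Aldh1l1 and Shmt1) were higher than at day 3 (11.4% of all genes), and 0 of the 8 passed the test against freely fed liver (0.0547% of all genes). With libraries scaled by their totals alone, 3 of the falls and 1 of the rises, that of Gldc, passed. With 1 library left out, 3 to 6 members passed for the fall and 1 to 6 for the rise. Liver is a mixed tissue, and in bulk RNA fewer cells of a type and less RNA per cell cannot be told apart. Of 8 hepatocyte markers 6 also fell at day 3, and the part of this shift in the fold changes of the members was not tested. Phgdh and Psat1, the genes of the entry steps of serine synthesis, were near the limit of detection in every group and were not tested.

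Promoter sequences are shown for Gldc, Amt, Aldh1l1 and Mthfd1 because these 4 genes passed the test in both directions, lower at LC than at AL and higher at RF than at LC. Each runs 5′ to 3′ over 300 bases, from 250 before to 50 after the gene's start, and is taken from RefSeq with the build GRCm38.p6. The deposited table carries no coordinates. The windows are chr19:30175392-30175691 on the minus strand for Gldc, chr9:108296655-108296954 on the plus strand for Amt, chr6:90550543-90550842 on the plus strand for Aldh1l1 and chr12:76254982-76255281 on the plus strand for Mthfd1. Capitals mark the letters CCAAT on either strand (ATTGG where it lies on the other strand).
Gldc: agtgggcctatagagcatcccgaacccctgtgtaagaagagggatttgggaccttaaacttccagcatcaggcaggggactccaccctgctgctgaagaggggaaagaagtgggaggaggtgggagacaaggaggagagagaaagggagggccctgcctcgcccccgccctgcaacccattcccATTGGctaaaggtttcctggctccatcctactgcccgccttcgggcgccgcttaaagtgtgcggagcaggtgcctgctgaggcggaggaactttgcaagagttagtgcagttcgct
Amt: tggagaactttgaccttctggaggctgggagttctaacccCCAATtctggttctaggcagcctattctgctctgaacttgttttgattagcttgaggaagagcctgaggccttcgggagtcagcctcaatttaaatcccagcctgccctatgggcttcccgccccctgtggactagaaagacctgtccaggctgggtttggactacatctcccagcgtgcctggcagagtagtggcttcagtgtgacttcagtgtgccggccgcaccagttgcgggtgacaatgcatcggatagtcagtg
Aldh1l1: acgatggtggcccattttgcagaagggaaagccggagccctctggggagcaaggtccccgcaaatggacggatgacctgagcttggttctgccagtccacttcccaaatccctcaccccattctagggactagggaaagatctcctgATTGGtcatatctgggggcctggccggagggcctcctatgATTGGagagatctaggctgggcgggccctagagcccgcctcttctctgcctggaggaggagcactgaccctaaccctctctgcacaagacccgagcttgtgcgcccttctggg
Mthfd1: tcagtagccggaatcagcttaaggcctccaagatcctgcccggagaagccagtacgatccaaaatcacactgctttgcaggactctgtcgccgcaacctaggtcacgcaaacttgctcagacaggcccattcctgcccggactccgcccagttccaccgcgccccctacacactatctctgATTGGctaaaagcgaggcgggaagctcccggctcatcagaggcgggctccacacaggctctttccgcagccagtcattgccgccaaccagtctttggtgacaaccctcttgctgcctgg

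Promoters were found for 9 of the 10 members, all except Sds, with 2 starts for Psat1. The letters CCAAT, on either strand, were in 8 of these 10 windows and in 37.4% of all 32851 windows of the same table, and the motif was chosen after the sequences had been seen. They were not in the window of Shmt2 or in 1 of the 2 windows of Psat1. They were in those of Psph, which passed no test, and of Phgdh, which was not tested. The TATA box letters TATAAA were in 1 of the 10 windows, that of Phgdh, against 13.6% of all windows. No member window held TGATGNAA, a form of the element bound by ATF4 (3.97% of all windows), TGACGTCA, the cAMP response element (1.79%), or GTAAACA, a FOXO element (3.65%). Motifs were searched on both strands, and these matches describe letters in this window only.

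The members spanned more than 3 orders of magnitude in FPKM, the unit that scales counts by transcript length and library depth. In AL liver the mean level was 404 ± 26.8 FPKM (SD, n = 3) for Aldh1l1 and 277 ± 148 FPKM for Sds. The paired hydroxymethyltransferase genes lay next, at 96.2 ± 17.9 FPKM for Shmt2 and 91.6 ± 25.9 FPKM for Shmt1, followed by Mthfd1 at 68.3 ± 8.88 FPKM. Amt was at 31.5 ± 1.53 FPKM, Gldc at 15.2 ± 2.75 FPKM and Psph at 5.06 ± 0.878 FPKM. Psat1 and Phgdh closed the order at 0.197 ± 0.115 and 0.167 ± 0.0808 FPKM. Over the 3 AL libraries the ranges of Aldh1l1 and Sds overlapped, as did those of Shmt2 with Shmt1, Shmt1 with Mthfd1, and Psat1 with Phgdh, whereas each other neighbour in the order was separate. At LC and RF Shmt1 stood above Shmt2, with overlapping ranges, and the genes from Aldh1l1 to Psph otherwise kept their places. Phgdh and Psat1 did not overlap at LC (0.095 ± 0.0656 and 0.260 ± 0.0432 FPKM) and did at RF.

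**Figure D1:**
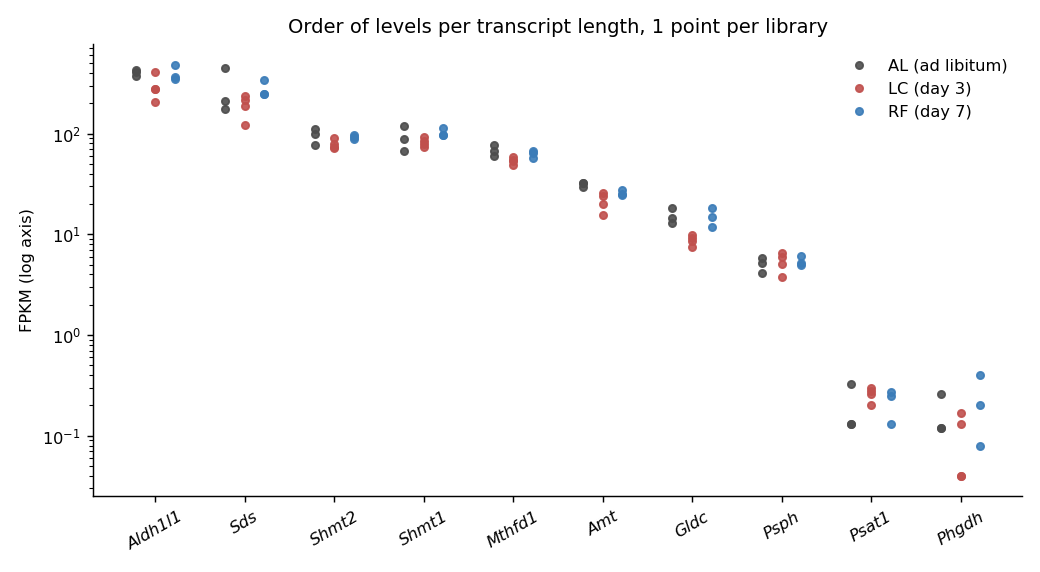
FPKM of the 10 enzyme genes in each library on a log axis, with 1 point per library, coloured by group (3 AL, 4 LC, 3 RF) and ordered by the AL mean. Aldh1l1 and Sds stand at the top, and Psat1 and Phgdh lie below 0.5 FPKM in every library.

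Phgdh, whose enzyme opens serine synthesis by oxidising 3-phosphoglycerate, had 6, 3 and 3 counts in the AL libraries, 3, 1, 1 and 4 at LC and 2, 10 and 5 at RF. Psat1, the aminotransferase gene of the next step, had 9, 4 and 4 counts at AL, 8, 6, 8 and 8 at LC and 7, 4 and 8 at RF. With at most 10 counts in any library, neither passed the filter on low counts and no difference between groups was detectable at this depth. Tested by edgeR without that filter, their log2 fold changes at LC against AL were −1.08 for Phgdh (adjusted p = 0.34) and 0.10 for Psat1 (adjusted p = 0.92). At RF against LC they were 1.45 for Phgdh (adjusted p = 0.19) and −0.05 for Psat1 (adjusted p = 0.97).

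Psph encodes the phosphatase that completes serine synthesis. Levels are given from here on in CPM, a gene's count relative to its library's total, after TMM (trimmed mean) scaling between libraries. CPM does not correct for length, so it compares samples and not genes. Psph was at 5.49, 6.94 and 4.55 CPM in the AL libraries, 4.46, 3.75, 2.96 and 4.96 CPM at LC, and 5.05, 6.26 and 5.28 CPM at RF. The AL and LC ranges overlapped, and every RF library lay above every LC library. The fold change of Psph on the log2 scale was −0.49 at LC against AL (SE 0.22, adjusted p = 0.11) and 0.46 at RF against LC (SE 0.22, adjusted p = 0.15), so Psph passed neither test. In the deposited FPKM values, without TMM scaling, the LC against AL difference was above 0, at 0.058 with a pseudocount of 1 (limma adjusted p = 0.80). The counts scaled by library totals alone gave −0.17 (edgeR adjusted p = 0.55).

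Gldc encodes the glycine decarboxylase that starts the glycine cleavage reaction. It was at 67.9, 61.6 and 49.9 CPM in the AL libraries, 28.6, 32.7, 25.9 and 24.5 CPM at LC, and 43.6, 66.4 and 53.7 CPM at RF. Every LC library lay below every AL and every RF library, and the AL and RF ranges overlapped. The mean was 59.8 ± 9.13 CPM at AL (SD, n = 3), 27.9 ± 3.60 CPM at LC (n = 4) and 54.6 ± 11.4 CPM at RF (n = 3). By edgeR's quasi-likelihood test the log2 fold change was −1.10 at LC against AL (SE 0.16, adjusted p = 0.00053), a 2.14-fold fall. It was 0.97 at RF against LC (SE 0.16, adjusted p = 0.0018) and −0.13 at RF against AL (SE 0.17, adjusted p = 0.81). Gldc was past the threshold in all 20 alternative settings tried for each of the first pair of comparisons.

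Amt, the aminomethyltransferase gene of the same system, was at 46.2, 54.5 and 45.5 CPM in the AL libraries, 31.1, 25.8, 27.6 and 20.4 CPM at LC, and 41.0, 36.8 and 35.9 CPM at RF. The 3 groups did not overlap, with RF between LC and AL. Amt fell at LC against AL by 0.89 on the log2 scale (SE 0.14, adjusted p = 0.00081) and rose at RF against LC (0.53, SE 0.14, adjusted p = 0.018). The remaining difference, RF against AL, was −0.36 (SE 0.15), with an unadjusted p of 0.0322 and an adjusted p of 0.42, and Amt was the sole tested member whose RF range lay apart from its AL range, where 9.56% of all tested genes lay apart in that direction. The rise at RF lost its call without RF replicate 1 (adjusted p = 0.072) or RF replicate 2 (0.051). The other subunits, named after their values were seen, were Gcsh, the lipoyl carrier, and Dld, a dehydrogenase that the system shares with other complexes. They fell at LC by 0.71 (SE 0.17, adjusted p = 0.0080) and 0.57 (SE 0.12, adjusted p = 0.0036) and rose at RF by 0.59 (adjusted p = 0.028) and 0.38 (adjusted p = 0.039).

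Within a library, the FPKM ratio of Gldc to Amt ranged from 0.434 to 0.564 in AL, from 0.362 to 0.492 in LC and from 0.429 to 0.731 in RF liver. The AL range overlapped both others, and the difference between LC and AL did not pass a two-sided exact permutation test (p = 0.29, smallest possible 0.029). Adjusted over the 9 ratio tests made for this and the ratios given further on, all p-values were 0.74.

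**Figure D2:**
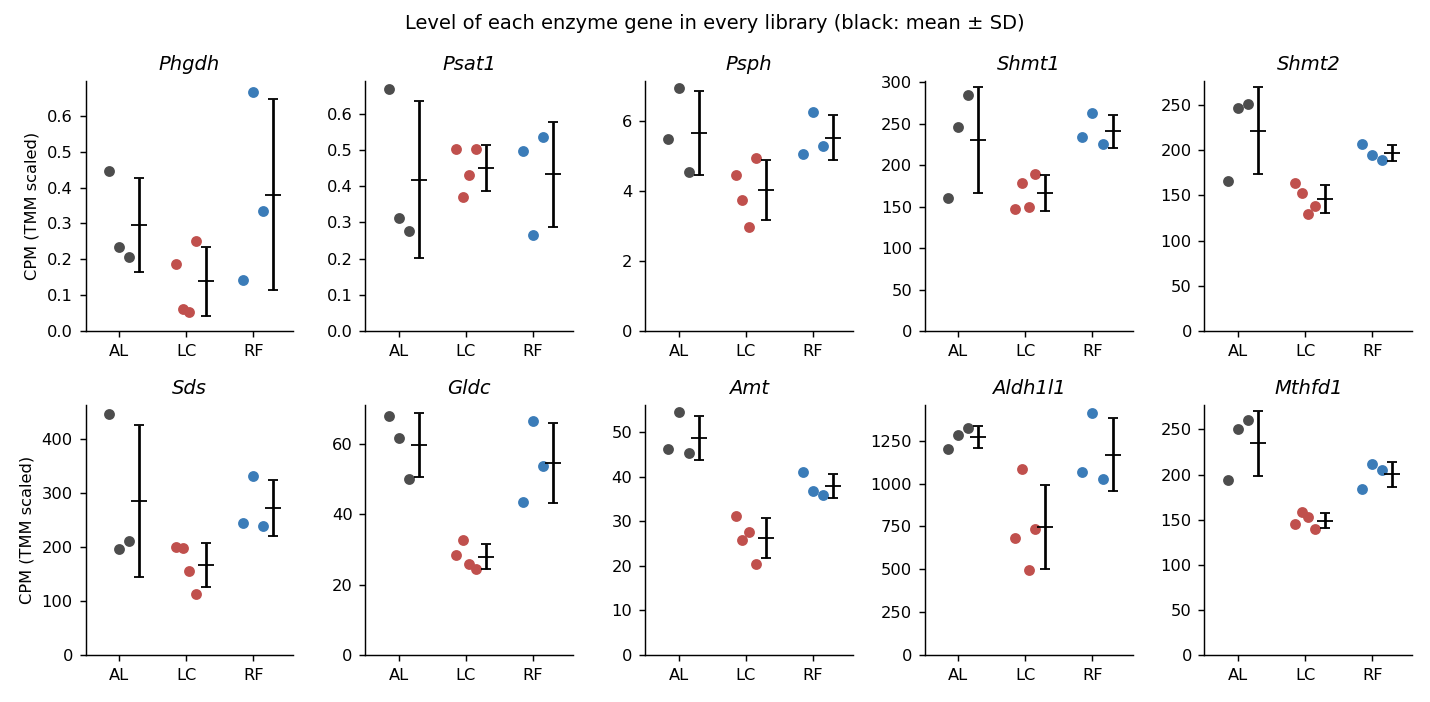
Level of each of the 10 enzyme genes in CPM after TMM scaling, with 1 point per library for AL (n = 3), LC (n = 4) and RF (n = 3) and a black bar for the mean ± SD. The LC points of Gldc, Amt, Aldh1l1, Mthfd1 and Shmt2 lie below every AL point, and in Sds 1 AL library stands at 448 CPM, above the 197 and 212 CPM of the others.

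Shmt1 was at 160.3, 246.5 and 284 CPM in the AL libraries, 147, 179, 150 and 189.8 CPM at LC, and 234, 263 and 225 CPM at RF. AL replicate 2, at 160.3 CPM, lay inside the LC range, and every RF library lay above every LC library. The difference of LC against AL, −0.47 on the log2 scale (SE 0.18, adjusted p = 0.056), did not pass, although it passed without AL replicate 2 (−0.67, adjusted p = 0.0037) and with DESeq2 (0.033). Shmt1 rose at RF against LC (0.53, SE 0.18, adjusted p = 0.044), and the call was lost when any of AL replicate 3, LC replicates 1, 2 or 3, or the 3 RF replicates was left out (adjusted p = 0.053 to 0.15).

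Shmt2 was at 166, 247 and 250.7 CPM in the AL libraries, 163.5, 153, 129.7 and 138 CPM at LC, and 207, 194 and 189 CPM at RF. Its LC libraries all lay below its AL libraries, by a margin of 163.5 against 166 CPM at the nearest point. Shmt2 fell at LC against AL (−0.60, SE 0.15, adjusted p = 0.0097), and leaving out AL replicate 3 (0.058) or AL replicate 4 (0.052) ended the call. The difference of RF against LC, 0.43 (SE 0.15, adjusted p = 0.057), did not pass, although it passed without AL replicate 2 (0.017) and with DESeq2 (0.041). The FPKM ratio of Shmt1 to Shmt2, the cytosolic to the mitochondrial form, ranged from 0.873 to 1.06 in AL, from 0.800 to 1.28 in LC and from 0.987 to 1.23 in RF liver, and neither LC against AL (exact permutation p = 0.57) nor RF against LC (0.74) passed, while RF against AL (0.20) could not go below 0.1.

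Sds was at 448, 197 and 212 CPM in the AL libraries, 201, 198, 156 and 113 CPM at LC, and 245, 332 and 239 CPM at RF. The AL mean of 286 ± 141 CPM (SD, n = 3) rested on AL replicate 2, and of the other AL libraries 1 lay inside the LC range and 1 just above it. Every RF library was above every LC library. The differences were −0.77 at LC against AL (SE 0.29, adjusted p = 0.067) and 0.70 at RF against LC (SE 0.29, adjusted p = 0.11), and neither passed, although both did with DESeq2 (adjusted p = 0.016 and 0.044). Without AL replicate 3 the LC difference passed (−0.98, adjusted p = 0.048), and without AL replicate 2 it was −0.29 (adjusted p = 0.32). Without AL replicate 2 the RF against LC difference passed (adjusted p = 0.020) while that of RF against AL changed from −0.07 to 0.41 (adjusted p = 0.45).

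Aldh1l1 encodes 10-formyltetrahydrofolate dehydrogenase, which oxidises the formyl group to carbon dioxide. Its share of the members' counts, which are not corrected for length, was between 52.5% and 54.6% in an AL library. Its share was between 43.4% and 59.0% in LC and between 51.9% and 56.0% in RF. Its levels were 1205, 1283 and 1328 CPM in the AL libraries, 684, 1083, 496 and 732 CPM at LC, and 1068, 1415 and 1028 CPM at RF. The LC libraries lay below those of AL, with LC replicate 2 nearest at 1083 CPM, and that library also overlapped the RF range. Aldh1l1 had a log2 fold change of −0.76 at LC against AL (SE 0.21, adjusted p = 0.016) and 0.64 at RF against LC (SE 0.21, adjusted p = 0.044). The fall was lost without AL replicate 3 (0.056) or AL replicate 4 (0.054), and the rise without any library other than LC replicate 2 (0.056 to 0.19).

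Mthfd1, the gene of a cytosolic enzyme with 3 activities on one-carbon folates, was at 193.5, 250.5 and 260.3 CPM in the AL libraries, 145, 158, 153 and 139.9 CPM at LC, and 184, 212 and 205 CPM at RF. The LC libraries lay within 139.9 to 158 CPM and below every other library. Mthfd1 had a log2 fold change of −0.66 at LC against AL (SE 0.13, adjusted p = 0.0027), 0.43 at RF against LC (SE 0.13, adjusted p = 0.032) and −0.23 at RF against AL (SE 0.14, adjusted p = 0.58). The rise was lost without LC replicate 1 (0.070) or 4 (0.070), or RF replicate 1 (0.050), 2 (0.12) or 3 (0.10). The FPKM ratio of Aldh1l1 to Mthfd1 ranged from 5.55 to 6.77 in AL, from 3.52 to 7.44 in LC and from 5.45 to 7.27 in RF liver, and neither LC against AL (exact permutation p = 0.69) nor RF against LC (0.43) passed, while RF against AL (0.70) could not go below 0.1.

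Read together, the 8 tested members had a median log2 fold change of −0.71 at LC against AL, where the median over all 12789 genes tested was 0.05. All 8 had a negative fold change there and an unadjusted p below 0.05, as 43% of all genes had in either direction, and 5 passed with adjustment over all genes. In 5 of the 8 the groups did not overlap, against 17.1% of all genes not overlapping in that direction. For RF against LC the median was 0.53, 7 had an unadjusted p below 0.05 (36% of all genes), 5 passed, and in 7 the groups did not overlap, against 17.7% of all genes. These comparisons share the LC samples, and the members were chosen with earlier results of these data known. For RF against AL the median was −0.13 and 0 of 8 passed by edgeR, with 1 at an unadjusted p below 0.05 (10.8% of all genes) and 0 by DESeq2 or limma. The RF against AL differences not given so far were −0.03 for Psph (SE 0.24), 0.06 for Shmt1 (SE 0.19), −0.17 for Shmt2 (SE 0.16) and −0.12 for Aldh1l1 (SE 0.23), each smaller than or about as large as its SE. Without RF replicate 1 or 2, 1 of the 8 passed at RF against LC, without LC replicate 1 or RF replicate 3, 2 did, and without AL replicate 3, LC replicate 3 or LC replicate 4, 3 did. At LC against AL 3 passed without AL replicate 4.

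**Figure D3:**
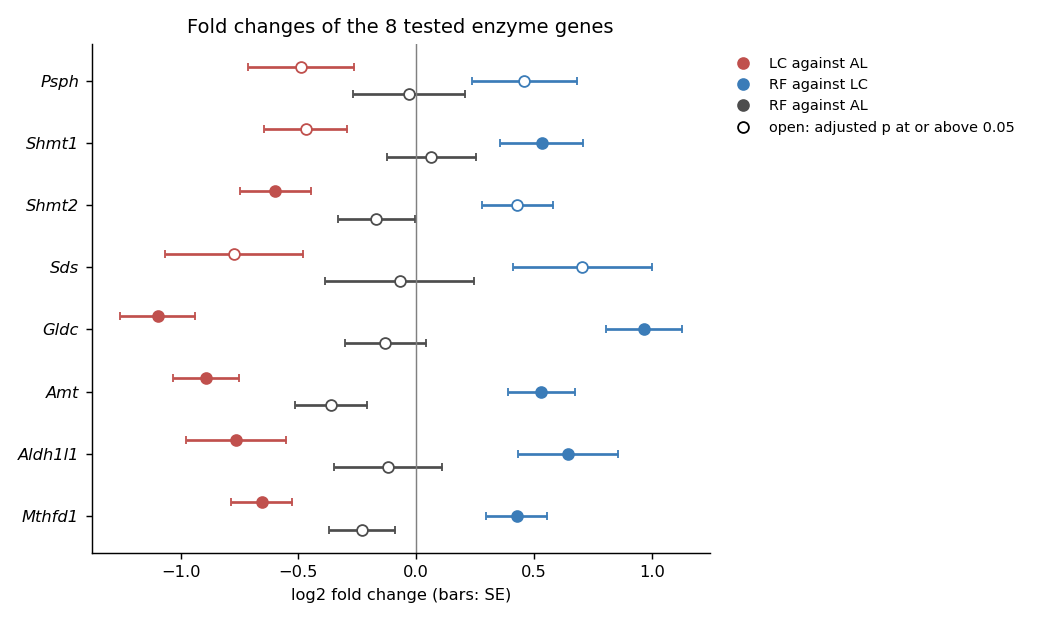
Log2 fold changes of the 8 tested enzyme genes in the 3 comparisons, with bars for the SE and filled points where the adjusted p was below 0.05. The fold changes at LC against AL lie below 0 in all 8 genes, those at RF against LC above 0, and those at RF against AL between −0.36 and 0.06.

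The sizes depended on how libraries were scaled. TMM factors lay between 0.827 and 0.952 in AL, between 1.06 and 1.18 in LC and between 0.964 and 0.969 in RF libraries. With library totals alone the fold changes of all genes moved up by a median of 0.31 at LC against AL. All 8 members kept a fold change below 0, from −0.79 for Gldc to −0.15 for Shmt1, and 3 passed, namely Gldc (adjusted p = 0.0026), Amt (0.010) and Mthfd1 (0.048). Aldh1l1 (−0.46, adjusted p = 0.068) and Shmt2 (−0.28, adjusted p = 0.14) no longer passed. Of all called genes 86.5% were then higher at LC, against 50.7% with TMM. Of the rises at RF against LC, that of Gldc alone passed under library totals (0.76, adjusted p = 0.0057), with 19.8% of called genes higher against 51.5%.

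**Figure D4:**
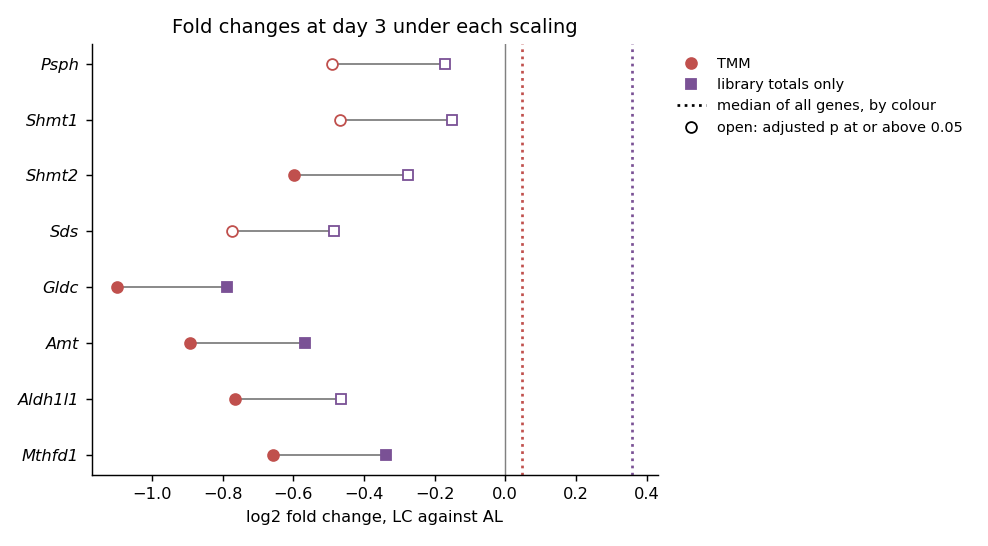
Log2 fold change at LC against AL of the 8 tested genes with TMM scaling (circles) and with library totals alone (squares), joined by a line. Filled marks have an adjusted p below 0.05, and dotted lines mark the median over all genes, at 0.05 with TMM and 0.36 with library totals.

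Neighbouring genes of the pathway were described from a list of 57, of which 56 were tested. The list was chosen with earlier results of these data known, so its shares beside those of all genes are a description. At LC against AL 18 were lower (32.1%), 3 were higher (5.36%) and 35 did not pass, where 15.6% of all genes were lower and 16% higher. Their median log2 fold change was −0.245. Between LC and RF 11 were higher at RF and 2 lower, beside 11.4% and 10.7% of all genes, and at RF against AL 0 passed by edgeR, DESeq2 or limma, with 7 at an unadjusted p below 0.05 (12.5%, beside 10.8% of all genes). With library totals alone the counts at LC against AL were 7 lower and 10 higher, and of the genes named here Ptdss1, Srr, Hal, Adsl, Slc38a4, Gcsh, Dld and Agxt were no longer called lower (adjusted p from 0.074 to 0.23).

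Of 14 genes of glycine and choline methyl metabolism 6 fell (42.9%), 1 rose and 7 did not pass. The 6 were Gcsh and Dld, described with Gldc and Amt, Agxt, which turns glyoxylate into glycine (−0.75, adjusted p = 0.0089, named after its values were seen), and Sardh, Dmgdh and Aldh7a1 of the route from choline. The dehydrogenase genes of sarcosine and dimethylglycine, whose enzymes pass carbon to folate, went from 1035 ± 163 to 610 ± 106 CPM for Sardh (−0.76, SE 0.16, adjusted p = 0.0032) and from 545 ± 144 to 268 ± 58.1 CPM for Dmgdh (−1.02, SE 0.20, adjusted p = 0.0023). Aldh7a1, which oxidises betaine aldehyde, fell by 0.99 (SE 0.15, adjusted p = 0.00060). Gatm, which uses glycine for creatine synthesis, was the gene that rose (0.58, adjusted p = 0.044); it was named after its values were seen and was no longer called when any of AL replicates 3 and 4, LC replicates 1 to 3 and RF replicate 3 was left out (adjusted p from 0.06 to 0.16).

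In a list of 11 genes of serine use, serine breakdown and linked phospholipid synthesis, 5 fell (45.5%), 1 rose and 5 did not pass. Cbs, which joins serine to homocysteine, fell by 0.77 (SE 0.15, adjusted p = 0.0026), the phosphatidylserine synthase gene Ptdss1 by 0.64 (adjusted p = 0.0039) and the serine racemase gene Srr by 0.61 (adjusted p = 0.0041). Pcyt2 of phosphatidylethanolamine synthesis rose (0.53, adjusted p = 0.049). It was named after its values were seen and was no longer called when any replicate was left out other than AL replicate 2 or LC replicate 3 (0.056 to 0.20).

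Of 11 genes that interconvert folates 2 fell (18.2%, beside 15.6% of all genes), 0 rose and 9 did not pass. Their median log2 fold change was 0.093. Mthfs, which returns 5-formyltetrahydrofolate to use, fell from 26.1 ± 2.92 to 16.4 ± 0.830 CPM (−0.67, SE 0.12, adjusted p = 0.0018). Mtr and Mtrr of the methionine synthase step had log2 fold changes of 0.17 and 0.32 (adjusted p = 0.36 and 0.19). In purine synthesis, 2 of 6 genes fell. Atic, which uses formyl folate in the closing steps, went from 12.6 ± 4.27 to 4.81 ± 0.263 CPM (−1.39, SE 0.22, adjusted p = 0.00081) and back to 12.7 ± 2.08 CPM at RF. Adsl fell by 0.66 (adjusted p = 0.0087; 0.050 without AL replicate 3), and Pfas did not pass (0.41, adjusted p = 0.11).

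Of 3 genes of histidine breakdown, which feeds carbon to folate, Hal fell (−0.70, adjusted p = 0.023), and Amdhd1 (−0.46) and Uroc1 (−0.33) did not pass. Hal was no longer called when AL replicate 2 (0.11), LC replicate 1 (0.051) or LC replicate 4 (0.061) was left out. Of 9 tested transporter genes 2 fell and 1 rose. The folate carrier gene Slc46a1 went from 29.8 ± 7.43 to 13.6 ± 1.32 CPM (−1.13, SE 0.17, adjusted p = 0.00058), and the amino acid carrier gene Slc38a4 fell by 0.54 (adjusted p = 0.015; 0.085 without AL replicate 3). Slc25a38, the mitochondrial glycine carrier gene, rose from 32.7 ± 8.40 to 49.7 ± 9.60 CPM (0.60, adjusted p = 0.019) and lost its call without AL replicate 3 (0.10) or 4 (0.093). The genes lower at RF than at LC were Slc25a38 (−0.75, adjusted p = 0.010) and the reduced folate carrier gene Slc19a1 (−1.07, adjusted p = 0.010), the latter named after its values were seen.

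**Figure D5:**
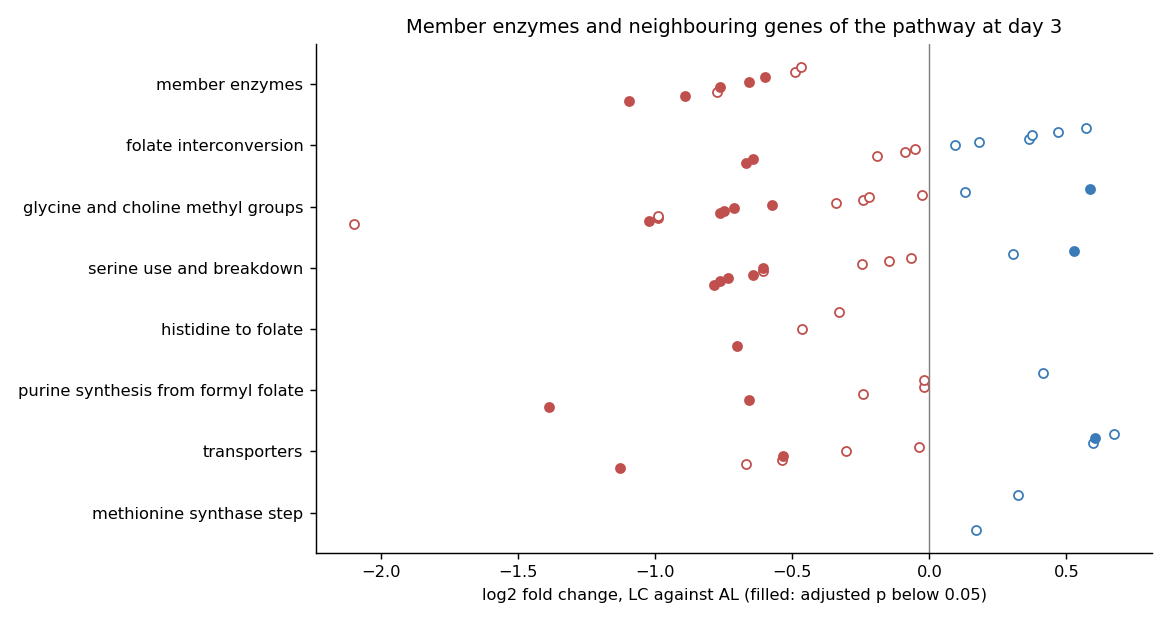
Log2 fold changes at LC against AL of the 8 tested enzyme genes and of 56 neighbouring genes in 7 groups, 1 point per gene, filled where the adjusted p was below 0.05 and coloured red below 0 and blue above. Of the neighbouring genes 18 filled points lie below 0 and 3 above.

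Atf4, the gene of a stress-response factor known to act on the serine synthesis genes, averaged 108 ± 12.8 CPM in AL, 154 ± 27.1 CPM in LC and 105 ± 11.6 CPM in RF liver. It rose at LC (0.51, SE 0.15, adjusted p = 0.022) and fell again at RF against LC (−0.55, adjusted p = 0.022), the rise no longer passing when AL replicate 3 (0.086) or 4 (0.096) or LC replicate 1 (0.061) was left out. Asns, a further known target, was at 2.37 ± 2.29, 1.42 ± 0.685 and 2.14 ± 0.203 CPM and did not pass. In the same LC libraries Phgdh reached at most 0.251 CPM and Psat1 at most 0.502 CPM.

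Over the 10 samples the tested members were positively correlated in every pair, from r = 0.147 for Shmt1 with Sds to r = 0.906 for Shmt2 with Mthfd1, a description of points that share 3 groups and a scaling. The genes outside the set most like Gldc in log2 CPM were Papss1 (r = 0.974), Ube2n (0.973) and Sec61a1 (0.972). For Amt they were Banf1 (0.986), Tmem129 (0.981) and Smu1 (0.980), out of 7862 genes averaging 10 CPM or more.

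Marker genes of liver cell types were read in the same libraries. Of all tested genes 15.6% were lower and 16% higher at LC against AL. Of 8 hepatocyte markers 6 fell at LC against AL and none rose, with a summed level of 85800 to 102000 CPM at AL and 52800 to 67700 CPM at LC, and 4 rose at RF against LC, to 79000 to 83600 CPM. Alb, the albumin gene, fell by 0.68 (adjusted p = 0.0044; 0.077 with library totals alone). Of 6 markers of periportal hepatocytes, which include Hal, 4 fell and none rose (7290 to 8560 and 4570 to 6210 CPM), and of 7 pericentral markers 2 fell and 2 rose (11700 to 21500 and 9690 to 14600 CPM). Sinusoidal endothelium, with 7 markers tested, had 3 that rose and 0 that fell (186 to 199 and 286 to 316 CPM). Of 6 Kupffer cell, 6 stellate cell and 5 cholangiocyte markers, 0, 1 and 0 fell and 0, 0 and 1 rose. Their summed levels at AL and LC were 71.8 to 121 and 81.2 to 150 CPM, 146 to 175 and 119 to 166 CPM, and 57.1 to 96.9 and 76.5 to 97.2 CPM in the same order. At RF against LC 3 of 6 periportal, 2 of 7 pericentral, 2 of 7 endothelial and 3 of 6 stellate markers also rose. There 1 pericentral and 2 endothelial markers fell, and no Kupffer cell or cholangiocyte marker passed. Of all genes 11.4% were higher and 10.7% lower in that comparison. Kidney markers summed to at most 0.138 CPM and pancreas markers to at most 27.7 CPM in any library, the latter from Cela1.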

How the data were processed

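Poly(A)-enriched liver RNA was sequenced without strand on the BGI DNBSEQ platform, per the labels' protocols. The authors deposited expected counts per gene, estimated counts of which 10.9% were not whole, and FPKM values scaled by length and depth. Per the submitters' processing notes the tools included HISAT and Bowtie2, without versions or roles, and the build was GRCm39; the sources used here do not give the counting program or annotation.

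Samples were grouped by their titles. Counts were rounded, filtered with filterByExpr (12789 of 17359 genes), scaled by TMM and modelled with a mean per group over the 10 libraries by the robust quasi-likelihood fit of edgeR 4.0.16 (R 4.3.3). Adjusted p-values are Benjamini-Hochberg over all genes tested, called below 0.05, and SE is the log2 fold change's size divided by the root of its F value. The steps were tested on simulated data. Single-library ratios were compared with exact permutation tests on the log2 scale. Alternatives used DESeq2 1.42.0, limma 3.58.1 on log2(FPKM + 1) and log2(FPKM + 0.1), other scalings and filters, and each library left out. The members and lists were chosen with earlier results of these data known. Named neighbours are the up to 3 genes of each group with the smallest p at LC against AL, some of which are not reported here.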

Additional observations from a re-analysis of the deposited data

How the results depend on the processing

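At LC against AL the number of members called, 5 with edgeR and TMM, was 7 with DESeq2 and 3 with library totals alone. It was 6 with the replicate block (Sds added, adjusted p = 0.0086). The FPKM settings, by limma, also had no TMM scaling. They called 3 with log2(FPKM + 1), 4 with log2(FPKM + 0.1) and 2 with log2(FPKM + 1) over all genes. The number lay between 3 and 6 when 1 library was left out. At RF against LC it was 5, against 7 with DESeq2, 6 with the block (Sds at an adjusted p of 0.032), 1 with library totals, 1 with each of the 3 FPKM settings and 1 to 6 with 1 library left out. At RF against AL it was 0 in every setting run. Gldc kept its call in all 20 alternatives in each of LC against AL and RF against LC, and Amt in all 20 of LC against AL.

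Some differences that did not pass changed sign under an alternative. At LC against AL Psph was at 0.058, 0.066 and 0.058 in the 3 FPKM settings. At RF against AL Psph was at 0.087 with library totals and 0.085, 0.10 and 0.085 in the FPKM settings, and Sds at 0.013 and 0.11 in each. With 1 library left out, RF against AL ran from −0.17 to 0.14 for Psph, above 0 without AL replicate 3 or RF replicate 1. It ran from −0.28 to 0.41 for Sds, above 0 without AL replicate 2 or RF replicate 3, from −0.14 to 0.24 for Shmt1, below 0 without AL replicate 2 or RF replicate 2, and from −0.30 to 0.0051 for Gldc, above 0 without RF replicate 1. Asns at LC against AL ran from −1.25 to 0.37, above 0 without AL replicate 2. The cause was not tested.

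Of all genes, 2045 were called higher and 1989 lower at LC against AL, against 4392 and 686 with library totals, 4291 and 708 with log2(FPKM + 1), 4294 and 715 with log2(FPKM + 0.1), and 4012 and 660 over all genes. Without 1 library the total was 2110 to 4353. At RF against LC the 1452 higher and 1369 lower became 673 and 2722, 707 and 2782, 696 and 2681, and 612 and 2458 in the same order, and the total without 1 library was 1435 to 3141. At RF against AL the 7 called became 100 with DESeq2, 13 with no filter, 1, 1 and 3 in the FPKM settings, and 1 to 13 without 1 library. Neighbouring genes called at LC against AL, 3 higher and 18 lower, became 9 and 8, 9 and 8, and 9 and 7 in the FPKM settings, with 1 higher under RLE size factors or with the compared groups alone, and were 0 to 4 higher and 15 to 20 lower without 1 library. At RF against LC the 11 higher became 4 with library totals, 4, 4 and 3 in the FPKM settings and 4 to 14 without 1 library.

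Same-numbered samples were not treated as pairs. The correlation of their deviations from the group means was −0.042 to 0.25 over 8 pairs, above 0.1 in 2, and 6 of 10 samples correlated best with their own number. With the replicate block the neighbouring genes called were 2 higher and 19 lower at LC against AL, and 16 higher and 2 lower at RF against LC. Alternatives for the neighbouring genes were added after the data were seen.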

Other observations

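The deposited count and FPKM tables gave different pictures of Psph. The transcript length implied by its count, its FPKM and the library total was 1006, 980.1 and 1008 bases in the AL libraries, 777.9, 793, 918.4 and 884.7 bases at LC, and 978.4, 1002 and 988.6 bases at RF. The LC libraries lay below every other library. Of the other 7 tested members, Sds also had its LC libraries apart, at 969.3 to 987.8 bases against 922.2 to 955.4 bases in the rest, and in the remaining 6 the LC range overlapped that of AL or RF. Over 10585 genes with at least 0.5 FPKM in every library the median log2 ratio of implied length, LC over AL, was 0.0047, with a 5th percentile of −0.055 and a 95th of 0.057. Psph stood at −0.24, and 0.359% of genes were at or below it. Its count-based fold change at LC against AL was −0.49 with TMM and −0.17 with library totals alone. Its fold change on log2(FPKM + 1), where no TMM scaling was applied, was 0.06, so −0.49 and 0.06 differ in scaling as well as in length. These values were picked out after the data were seen, and no test was made.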
